A study of Mus musculus with 4 samples.

Results

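Each B cell builds the variable region of its antibody heavy chain by joining 1 V gene to a D and a J gene, and mouse V genes fall into families by sequence. The largest is IGHV1, and IGHV11 and IGHV12 encode antibodies to phosphatidylcholine that are typical of B-1a cells of body cavities. All other families together, IGHV2 to IGHV10 and IGHV13 to IGHV16, are described here as the smaller families. Members were every V gene of these families that was carried by the heavy-chain contig with the most UMIs of a cell barcode. UMIs, or unique molecular identifiers, count captured RNA molecules, and a contig is an assembled receptor transcript. There were 47 such V genes among 99 heavy-chain V genes in all. They were carried by 2509 of 6041 heavy-chain barcodes in the wild-type (WT) library and by 6089 of 13190 in the knockout (KO) library. No IGHV16 gene was found.

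The cells were sorted CD45-positive immune cells, washed from the peritoneal cavity of WT and KO mice that had been put on a high-fat diet at 4 weeks of age and kept on it for 3 months. The targeted gene is not reported here. Each genotype had 1 B-cell receptor library and 1 matched expression library, and the sources used here do not say how many mice went into a library. With 1 library per genotype no test between genotypes could be made. Intervals below are 95% intervals that cover counting error only, exact (Clopper-Pearson) for shares and by the normal approximation on the log scale for ratios of shares.

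The heavy-chain locus lies on mouse chromosome 12, and V genes near the D segments are joined early in B-cell development. B-1 cells renew themselves in the peritoneum and make much of the natural IgM, often with receptors that carry few added bases at the joints, because the enzyme that adds them is low in fetal precursors. IGHV7-1 has a known place in this setting, since it encodes the heavy chain of the T15 antibodies to phosphorylcholine, which pair with the light-chain gene IGKV7-33. B-2 cells, the recirculating follicular type, carry IgD and the surface marker CD23 alongside IgM.

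The members spanned much of the locus. In the GENCODE M21 annotation of the GRCm38 build, the most common deposited sequence of all 47 V genes matched an annotated V gene exactly. IGHV5 and IGHV2, with 9 genes each, were interleaved nearest to the D segments, between positions 113578504 and 113879541. IGHV7, IGHV14, IGHV4, IGHV3 and IGHV9 followed, and then IGHV13, IGHV6, IGHV10 and IGHV15. The 5 IGHV8 genes lay farthest away, among IGHV1 genes, from 115024026 to 115648387.

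Depth differed between the libraries. Smaller-family heavy chains had a median of 34 UMIs per barcode in WT and 21 in KO. A second heavy-chain contig was present in 12.2% of member barcodes in WT and 15.7% in KO. The V gene names were checked in the expression libraries. Among member barcodes with V gene UMIs there, the most abundant V gene was the one of the contig in 98.5% of the WT barcodes (97.9 to 98.9) and in 96.7% of the KO barcodes (96.3 to 97.2). The B-cell transcripts Cd79a, Cd79b, Ms4a1 and Cd74 were present in member barcodes of both libraries. Heavy-chain barcodes found in both libraries numbered 107, and 0 of them carried the same heavy chain in both.

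Heavy chains recurred far more often in the KO library, and this bears on every count per barcode. A clone was defined as the barcodes of a library that share V gene, J gene and the nucleotides of CDR3, the junction of V, D and J. Clones of at least 2 held 19.4% of WT member barcodes and 64.2% of KO member barcodes, so the KO share was 3.30 times that of WT (3.04 to 3.58). With KO barcodes thinned at random to the WT number of heavy-chain barcodes, the KO share was 36.2% and the ratio 1.86 (1.70 to 2.05). Most of the excess was in pairs: clones of exactly 2 barcodes numbered 120 of 2192 in WT and 1353 of 3845 in KO. Both barcodes of a KO pair had the same light-chain CDR3 in 95.1% of the pairs that had light chains, against 78.8% in WT. KO pairs were also shallow, with a median of 18 heavy-chain UMIs against 28 in KO barcodes found once, while in WT these values were 31.5 and 33. In the expression library the medians were 2864 UMIs for KO pairs and 4701.5 for KO barcodes found once. Log heavy-chain UMIs of the 2 barcodes of a pair had a correlation of 0.750 in KO and 0.521 in WT. For log expression UMIs it was 0.823 and 0.628. IGHV1 heavy chains had the same feature, with 1307 pairs in KO and 84 in WT. Whether KO pairs are sister cells or 1 cell under more than 1 barcode was not tested. Values per clone count a pair once and are given for the family and V gene shares, while marker levels are over all barcodes.

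Every smaller family with at least 20 barcodes in each library shared in this recurrence. The share of clones with exactly 2 barcodes in KO ran from 29.7% in IGHV14 to 41.7% in IGHV8. In WT it ran from 0% of 22 clones in IGHV13 to 12.5% in IGHV4. Clones of 3 or more were most frequent in IGHV7 and IGHV4 in both libraries, at 3.8% and 7.1% in WT and 12.7% and 12.3% in KO.

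**Figure D1:**
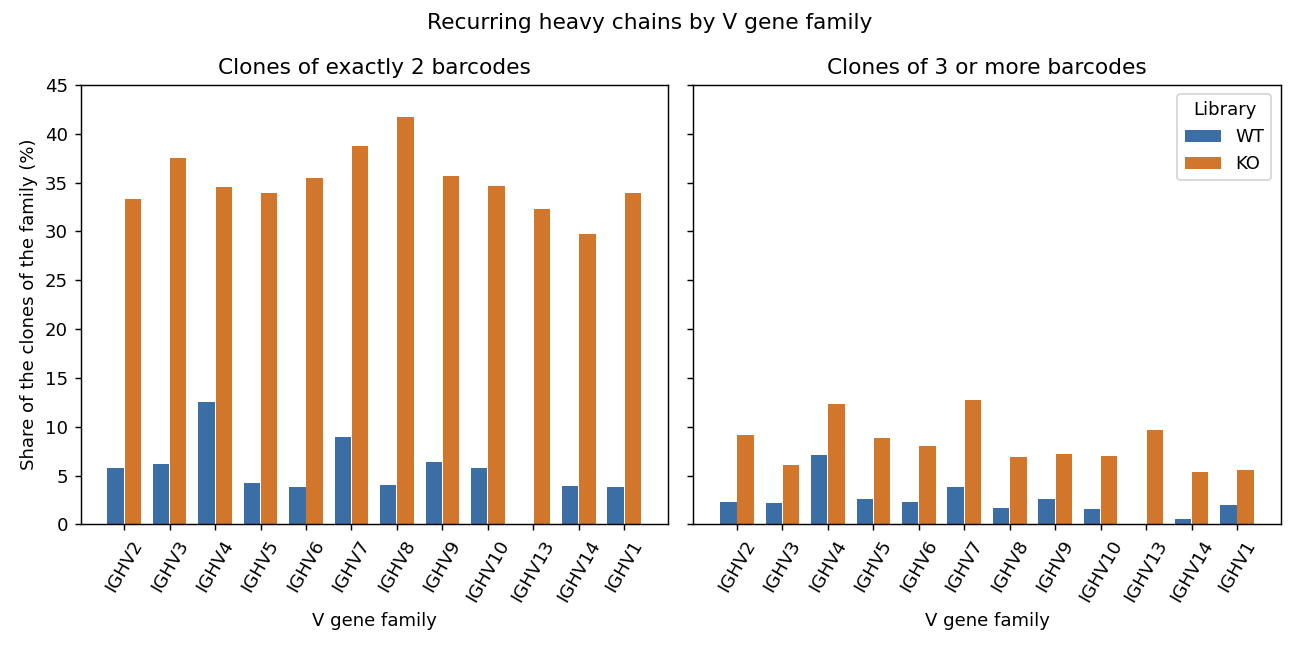
Share of the clones of each V gene family (%, y axis) that held exactly 2 barcodes (left) or 3 or more (right) in the WT and KO libraries. KO bars for pairs stand between 29.7% and 41.7% in the smaller families, against at most 12.5% in WT, and IGHV1 stands among them.

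The smaller families took a larger part of KO heavy chains per barcode but not per clone. The WT library had 41.5% of its barcodes in these families (40.3 to 42.8) and the KO library 46.2% (45.3 to 47.0), with a KO to WT ratio of 1.11 (1.07 to 1.15). Per clone the shares were 47.5% (46.1 to 49.0) and 48.7% (47.6 to 49.8), and the ratio was 1.02 (0.986 to 1.06), whose interval holds 1. The other families show where the barcode share differed. IGHV11 was at 8.33% of WT and 4.24% of KO barcodes (1.06% and 0.570% of clones), and IGHV12 at 10.1% and 6.22% (4.27% and 1.99% of clones). IGHV1, carried by 2419 and 5722 barcodes, was also higher in KO, at 40.0% and 43.4% (ratio 1.08, 1.04 to 1.12). Per clone IGHV1 was at 47.1% and 48.8%. With IGHV11 and IGHV12 left out of the total, the smaller families made up 50.9% of WT and 51.6% of KO barcodes, a ratio of 1.01 (0.980 to 1.05).

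Among the families, IGHV5 and IGHV2 were the largest and IGHV4, IGHV13 and IGHV15 the smallest in both libraries. IGHV5 was carried by 6.79% of WT and 8.26% of KO barcodes (ratio 1.22, 1.09 to 1.36), and by 7.63% and 8.76% of clones (ratio 1.15, 1.01 to 1.30). It was the only smaller family whose interval excluded 1 in both counts. Without IGHV11 and IGHV12 in the total, the IGHV5 intervals held 1, at 1.11 per barcode (0.994 to 1.24) and 1.12 per clone (0.986 to 1.26). IGHV7 had the highest ratio per barcode of the families with at least 20 barcodes in each library, at 3.28% and 4.60% (ratio 1.40, 1.20 to 1.64). Per clone it was at 3.40% and 3.89%, and that interval held 1 (ratio 1.14, 0.945 to 1.38). IGHV3 was at 4.20% and 4.88% of barcodes (ratio 1.16, 1.01 to 1.34) and at 4.88% and 5.41% of clones (ratio 1.11, 0.947 to 1.30). Ratios per barcode of IGHV2, IGHV6, IGHV9 and IGHV14 lay between 1.07 and 1.11, and per clone between 0.985 (IGHV2) and 1.04 (IGHV14). Those of IGHV8, IGHV10, IGHV13 and IGHV4 lay between 0.804 and 0.993 per barcode and between 0.823 and 0.874 per clone. All of these intervals held 1, and for IGHV2 the direction turned between the counts. With IGHV11 and IGHV12 left out, the IGHV4 ratio per barcode was 0.733, and its interval lay below 1 (0.556 to 0.966). Per clone that ratio was 0.820 (0.585 to 1.15). IGHV15 was seen in 1 WT and 3 KO barcodes, all IGHV15-2.

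**Figure D2:**
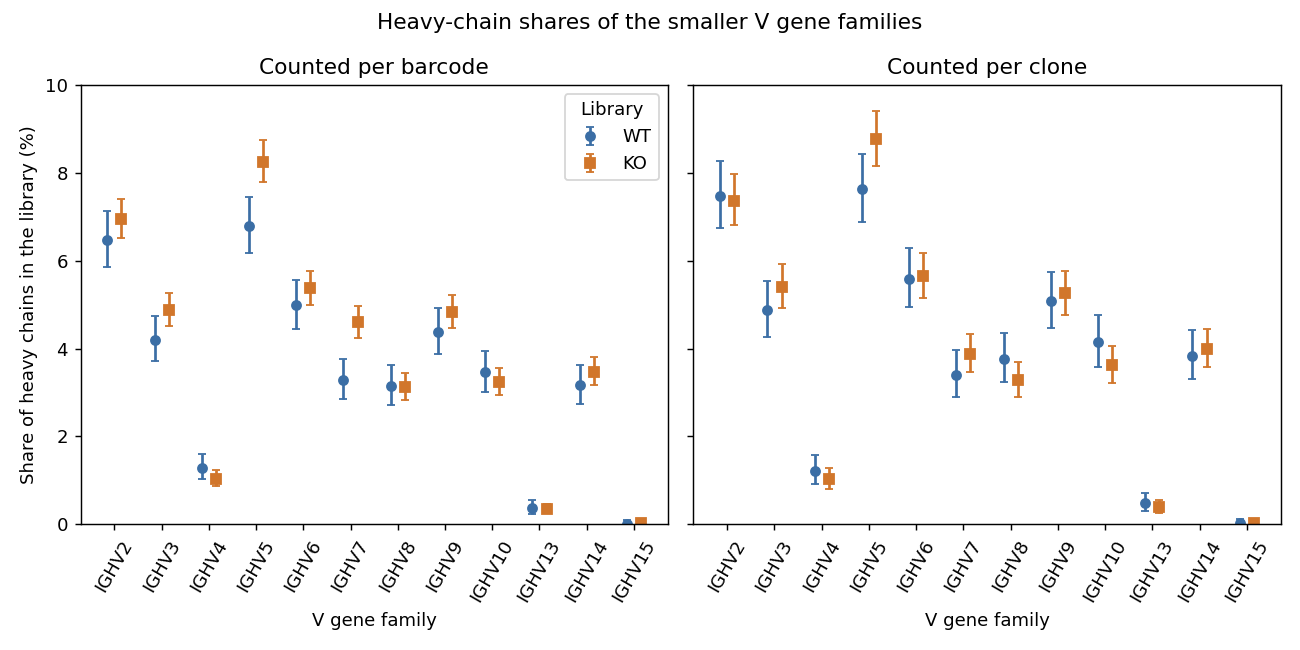
Share of heavy chains (%, y axis) of each smaller V gene family in the WT and KO libraries, per barcode (left) and per clone (right), with exact 95% intervals for counting error. The libraries lie apart for IGHV5 and IGHV7 per barcode, and per clone the intervals of both overlap.

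Of the smaller-family V genes, IGHV5-4 had the ratio interval farthest from 1. It lies at chr12:113597446-113597977, the third V gene from the D segments among those found. It was carried by 44 WT barcodes (0.728%) and 212 KO barcodes (1.61%), a ratio of 2.21 (1.60 to 3.05). Its 41 WT and 132 KO clones gave a ratio of 1.88 (1.33 to 2.66). A V gene was called where the whole ratio interval lay beyond 1.5-fold, among V genes with at least 20 barcodes over both libraries. IGHV5-4 was the 1 member of 40 called higher in KO per barcode, where the share over V genes of all families was 1.19% of 84. No member of 40 was called lower per barcode, where the share over all families was 1.19% (IGHV11-2). Per clone 0 members were called higher, with 0% over all families, and 0 lower, with 1.19% (IGHV12-3). The median KO to WT ratio was 1.15 over the members and 1.14 over all V genes tested per barcode, and 1.03 and 1.05 per clone. IGHV5-4 dropped below the call also with only barcodes of exactly 1 heavy-chain contig and with the largest clone of each family left out, at ratios of 2.08 and 2.05.

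Members next to IGHV5-4 had varied ratios. The V genes around it are IGHV2-2 and IGHV2-3, at ratios per barcode of 1.43 (1.13 to 1.81) and 1.37 (0.989 to 1.91), and per clone of 1.28 (0.981 to 1.67) and 1.29 (0.903 to 1.83). IGHV2-4, with 4 WT and 24 KO barcodes, had a ratio of 2.75 and a wide interval (0.954 to 7.92). Per clone it was at 2.48 (0.835 to 7.37). IGHV5-6, between these, was at 0.942 per barcode (0.709 to 1.25) and on the other side of 1 per clone, at 1.13 (0.793 to 1.61). With the largest clone of each family left out, its ratio per barcode was 1.10.

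The most used member was IGHV3-6, with 214 WT and 537 KO barcodes (3.54% and 4.07%), followed by IGHV9-3 with 178 and 455 (2.95% and 3.45%). IGHV6-3 was carried by 2.53% and 3.59% of barcodes and IGHV6-6 by 2.43% and 1.78%. These 2 genes of 1 family thus lay on opposite sides of 1, with ratios of 1.42 (1.19 to 1.70) and 0.732 (0.597 to 0.898). Per clone the ratios were 1.15 (0.944 to 1.40) and 0.833 (0.655 to 1.06). IGHV7-3 was at 2.09% and 2.89% and IGHV7-1 at 1.06% and 1.44%, and IGHV5-17 at 1.84% and 2.42%. Their ratios per barcode were 1.38 (1.13 to 1.69), 1.36 (1.03 to 1.80) and 1.32 (1.06 to 1.63). Per clone they were 1.16, 1.04 and 1.13, with intervals that held 1. IGHV9-4, at 49 and 74 barcodes, had a ratio of 0.692 (0.483 to 0.991) and per clone of 0.692 (0.462 to 1.04). IGHV8-8 was at 1.99% and 1.65% of barcodes, and its ratio per clone was 0.767 (0.597 to 0.987).

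The other V genes at 1% or more in a library had ratio intervals that held 1 in both counts. They were IGHV10-1 (2.38% and 2.04%), IGHV10-3 (1.08% and 1.21%), IGHV14-2 (1.41% and 1.58%), IGHV14-3 (0.877% and 1.10%), IGHV2-3, IGHV2-9-1 (1.21% and 1.06%) and IGHV4-1 (1.29% and 1.04%). IGHV5-16 (1.37% and 1.06%), IGHV5-6, IGHV5-9-1 (0.877% and 1.08%) and IGHV8-12 (0.844% and 1.11%) belonged here too. IGHV13-2, the only IGHV13 gene found, had 22 and 47 barcodes. IGHV3-3 was found in 10 KO barcodes and in 0 of 6041 WT barcodes, for which 3 counts of the total give a limit of 0.0497% and the exact interval ends at 0.0610%. IGHV6-4 was found in 1 WT barcode and in 0 of 13190 KO barcodes, with a limit of 0.0227% by 3 counts and 0.0280% by the exact interval.

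**Figure D3:**
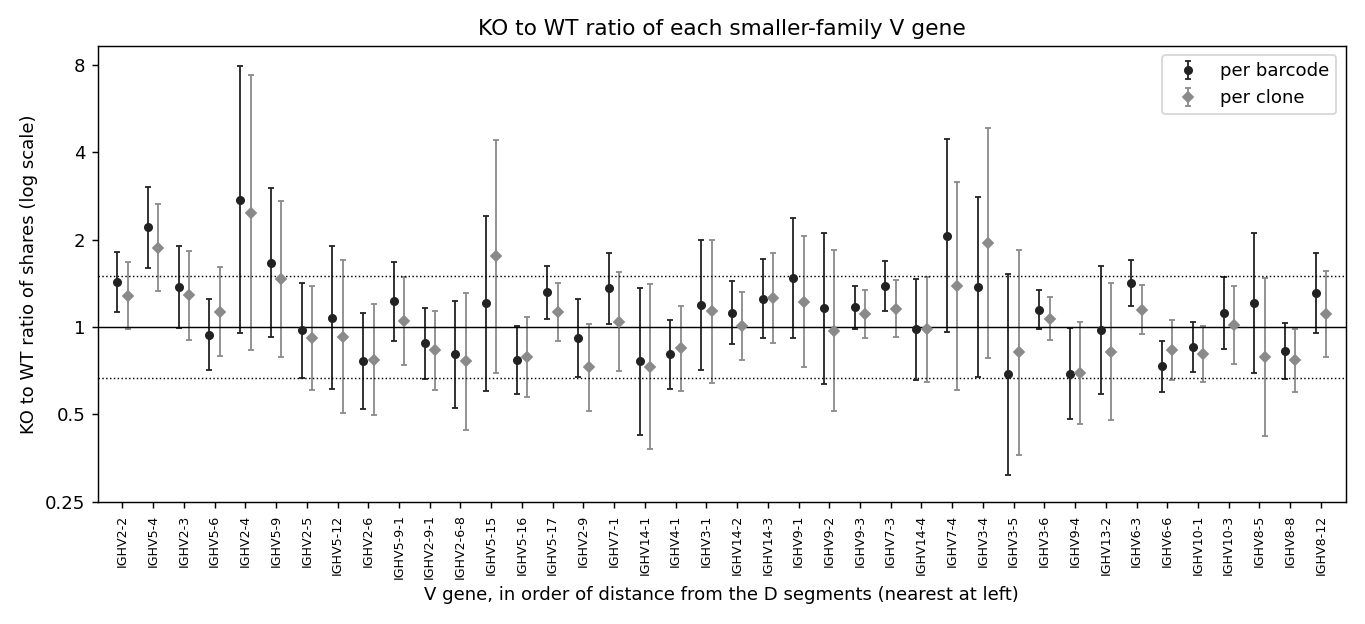
KO to WT ratio of the share of each smaller-family V gene with at least 20 barcodes over both libraries (log scale, y axis), per barcode (circles) and per clone (diamonds), with 95% intervals for counting error and dotted lines at a 1.5-fold difference. V genes run from the nearest to the D segments at left to the farthest at right, and the barcode interval of IGHV5-4 alone lies wholly beyond a dotted line.

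Most member heavy chains were IgM. Class-switched constant genes (IGHG or IGHA) made up 40 of 2508 WT barcodes with a constant gene (1.59%) and 93 of 6079 KO barcodes (1.53%), a ratio of 0.959 (0.664 to 1.39). With each clone and constant gene counted once, the shares were 1.73% and 1.61%. IgG3 and IgG2b were the leading classes, with 16 and 14 barcodes in WT and 29 each in KO. IgA had 6 and 24. In IGHV1 the switched share was 1.16% in WT and 1.07% in KO. No switched chain was found among the 503 WT and 558 KO barcodes of IGHV11 or the 610 and 819 of IGHV12.

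Switched chains were spread unevenly over the families. IGHV7 had 3.03% of 198 barcodes in WT and 2.97% of 606 in KO. All 6 of the WT chains were IGHV7-3 joined to IgG3, each in a clone of its own. IGHV7-3 had 17 switched barcodes in KO, from 13 clones, 8 of them IgG3. In IGHV4 the values were 2 of 78 WT barcodes (2.56%) and 12 of 137 KO barcodes (8.76%), the latter from 7 clones with 6 IgG3 and 5 IgA barcodes. IGHV6 was at 1.33% and 3.11%, and 10 of its KO barcodes, all IGHV6-3, were IgA. At the other end, IGHV14 had 2 and 1 switched barcodes, 1.05% and 0.22%.

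IgD as the constant gene of the leading contig had a lower share in the smaller families than in IGHV1, and the intervals did not overlap in either library. In WT it was found in 1.56% of member barcodes (1.11 to 2.12) and in 4.26% of IGHV1 barcodes (3.49 to 5.15). In KO these shares were 2.58% (2.20 to 3.01) and 5.92% (5.32 to 6.57). Per clone, IgD was at 1.78% and 3.65% in the members and at 4.73% and 7.98% in IGHV1. No test was made, since cells of 1 library are not replicates. IGHV14 had the highest share in both libraries of families with over 20 barcodes, at 5.76% and 5.92%. IGHV4 had 0 of 78 and 0 of 137. IGHV6 had 0 of 301 WT barcodes (interval up to 1.22%) and 0.85% in KO, and IGHV10 had 0 of 209 and 1.64%. IGHV7 was at 1.52% and 0.83%. IGHV5-4 had 0 IgD barcodes of 44 in WT and 16 of 212 in KO. No interval is given for these counts, the WT barcodes are few, and KO barcodes recur in pairs. The counts therefore do not show IgD in IGHV5-4 to be limited to KO. Its barcodes held Ighd transcripts in both expression libraries, as given below.

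The expression libraries gave a second view of which B cells carried the families. CD23 is encoded by Fcer2a, which follicular B cells express and peritoneal B-1 cells largely lack. It is 1 of 8 markers of the B-2 list, and counts over that list are given below for some families. Levels are in CPM, the UMIs of a gene per 1000000 UMIs summed over the barcodes of a family and library. Over all members Fcer2a stood at 88.8 CPM in WT and at 93.8 CPM in KO. It was at 137 and 140 CPM in IGHV1 barcodes and at 11.4 and 4.94 CPM in IGHV11 barcodes. IGHV7 had the lowest KO level of the families, 51.8 (43.3 to 61.5), and in WT IGHV7 at 47.7 (37.2 to 60.2) and IGHV4 at 47.3 were lowest. IGHV6 was at 78.3 and 67.7. IGHV8 and IGHV9 were between 111 and 116 in both libraries. Intervals of CPM values are exact Poisson 95% intervals.

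Single V genes spread more widely than families. IGHV7-1 had Fcer2a at 18.3 CPM in WT (9.12 to 32.7) and 23.1 CPM in KO (13.9 to 36.1), the lowest of the named V genes. IGHV7-3, of the same family, was at 70.4 (53.6 to 90.8) and 67.2 (54.9 to 81.3). IGHV5-4 was among the highest, at 156 (114 to 210) and 164 (137 to 196), and IGHV8-12 was at 156 and 149. IGHV13-2, with few barcodes, was at 96.7 (51.5 to 165) in WT and at 175 (116 to 252) in KO. Transcripts of Ighd, the IgD constant gene, were at 160 CPM in WT (117 to 214) and 139 CPM in KO (114 to 168) in IGHV5-4. These intervals overlap. Of the B-1 list, 2 genes were picked after their values were seen: Plscr1 was at 204 and 197 in IGHV7-1 and at 60.4 and 83.5 in IGHV5-4, and S100a6 at 4749 and 4243 and at 2200 and 2257. Other genes of that list were lower in the IGHV7 family than in IGHV1 in WT. Ctla4 was at 32.9 CPM (24.4 to 43.5) in IGHV7 and 56.7 (53.0 to 60.6) in IGHV1 there, and at 56.2 and 55.9 in KO. Nfatc1, Cd5 and Spn were at 158, 22.2 and 13.4 in IGHV7 and at 177, 28.3 and 18.2 in IGHV1 in WT, with overlapping intervals. In KO they were at 146, 29.5 and 18.3 in IGHV7 and at 131, 27.0 and 18.7 in IGHV1. These are values of the whole IGHV7 family, not of IGHV7-1 alone.

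Over the whole lists, the picture was less even. The counts that follow go by the CPM values alone, so some differences lie within counting error. Compared with IGHV1 barcodes, 8 of 11 B-1 markers were higher in both libraries in IGHV2 and in IGHV14, and 11 of 11 in IGHV11 and in IGHV12. Anxa2 in IGHV14, for example, was at 222 in WT (198 to 249) and 212 in KO (192 to 234), against 218 and 212 in IGHV1. In IGHV7 only 4 were higher in both libraries and 1 was lower. In IGHV13 none were higher and 4 were lower. Of 8 B-2 markers, 7 were lower in both libraries in IGHV4, IGHV5 and IGHV6. In IGHV7, 6 were lower in both libraries and 1, Cxcr5, was higher. Cxcr5 was at 114 CPM in WT and 113 in KO there, against 106 and 96.3 in IGHV1. Klf2 in IGHV7 was lower in WT, at 2956, and higher in KO, at 3135. The summed lists rest largely on 1 gene each, since S100a6 held 74.9% of the B-1 list UMIs in WT and Klf2 76.3% of the B-2 list UMIs. The quotient of the B-1 to the B-2 list was 0.942 in WT and 0.818 in KO over the members, a KO to WT ratio of 0.869 (0.857 to 0.881). This lower quotient is not shown to be particular to the members. S100a6 was lower in KO in IGHV1 as well, at 2493 and 2088 CPM, against 2788 and 2457 in the members. Klf2 was at 3085 and 3025 in IGHV1 and at 3016 and 3065 in the members. Markers of other cells varied between families and libraries. Macrophage markers (Lyz2, Adgre1, C1qa and Csf1r) summed to between 4.71 (IGHV10) and 564 CPM (IGHV5) in WT and between 32.8 (IGHV4) and 1015 CPM (IGHV2) in KO. Their part in these results was not tested.

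**Figure D4:**
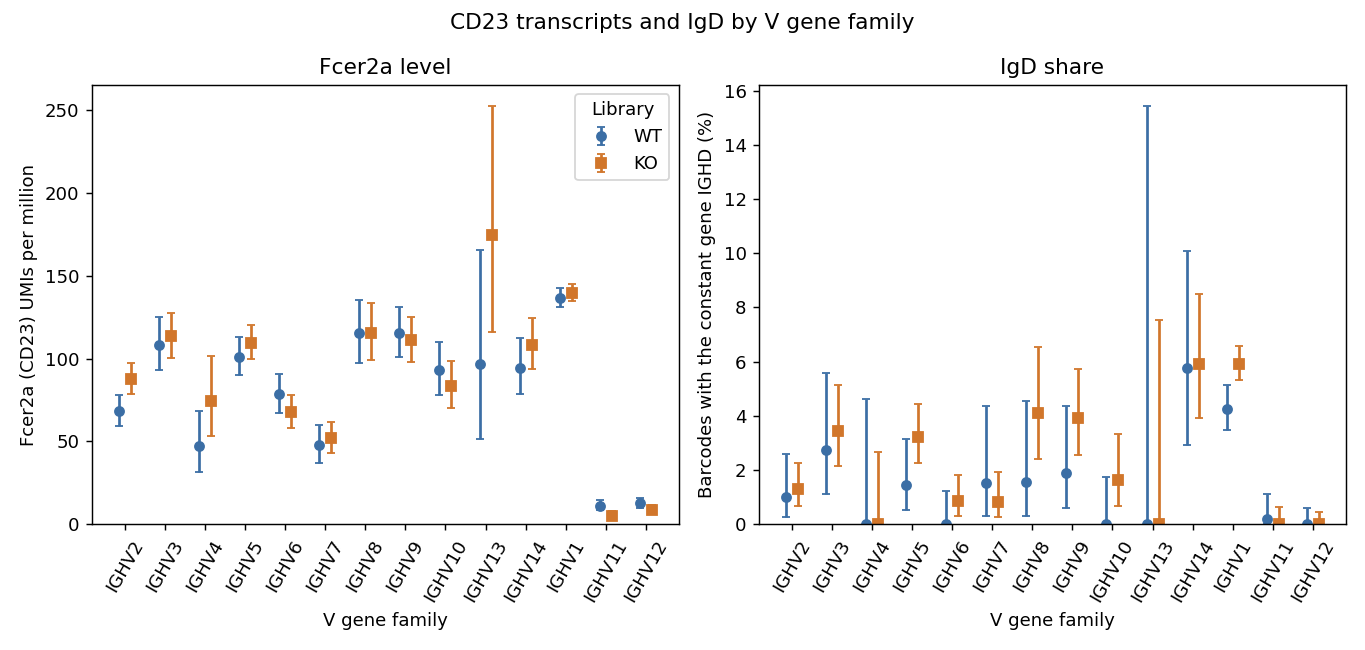
Fcer2a UMIs per 1000000 UMIs with exact Poisson 95% intervals (left) and the share of barcodes with the constant gene IGHD (%) with exact binomial 95% intervals (right), by V gene family, in the WT and KO libraries. IGHV7 stands below IGHV1 on both axes in both libraries, and IGHV11 and IGHV12 stand near 0.

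The heavy-chain joints were short in some families. The median CDR3 of member clones had 39 bases in both libraries, and IGHV6 had the shortest, 33 bases in both. In the middle of the CDR3, a median of 14 bases lay between the unbroken matches to the V gene end and to the J gene, against 16 in IGHV1. They are called unmatched here, although bases beyond a first mismatch can still equal the V or J gene. CDR3s whose middle was found whole within a germline D gene, so that no added base was needed, made up 18.1% of WT member clones and 14.7% of KO member clones. In IGHV1 these shares were 12.6% and 9.9%. IGHV7 had 25.5% and 23.5%, the highest of the smaller families with at least 20 clones, and IGHV4 had 8.9% and 7.5%, the lowest. In IGHV7-1 the share was 44.7% of 38 WT clones and 41.2% of 68 KO clones, with medians of 8 and 11 unmatched bases. A short middle can match a D gene by chance, which raises these shares, while a V or J mismatch lengthens the middle.

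J gene use differed by family as well. IGHJ2 was joined in 33.7% of WT and 34.3% of KO member clones. IGHV2 joined IGHJ4 more, in 39.7% and 39.5% of its clones, and IGHV6 joined IGHJ3 in 32.9% and 32.7%. IGHV4 and IGHV7 joined IGHJ1 in 30.4% and 33.8% of WT clones and in 40.7% and 24.1% of KO clones. In IGHV7-1 the IGHJ1 share was 52.6% and 47.1%, which was below the 91.8% and 88.9% of IGHV11.

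Differences from the most common V sequence of the same gene were few. They were found in 108 WT clones (4.9%) and 254 KO clones (6.6%), against 3.7% and 4.8% in IGHV1. In class-switched member clones they were found in 44.7% of 38 in WT and 47.6% of 63 in KO, and in unswitched clones in 4.27% and 5.99%. IGHV4-1 had differences in 4 of 56 WT clones (7.1%) and in 25 of 81 KO clones (30.9%), and 17.3% of its KO clones differed at 3 or more bases. In IGHV7-3 they were in 6 of 111 WT and 33 of 220 KO clones. IGHV6-3 was high in both libraries, at 15.6% and 16.6%. Whether such differences are mutations or other alleles was not tested.

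Of the named V genes, IGHV7-1 had the highest share of 1 light-chain V gene. Its light chain was IGKV15-103 in 33 of 63 WT barcodes with a light chain (52.4%, 39.4 to 65.1) and in 101 of 187 KO barcodes (54.0%, 46.6 to 61.3). Among barcodes with any other V gene, IGKV15-103 was at 1.31% and 1.34%. The pairing went with IGHJ1: of IGHV7-1 chains joined to IGHJ1, 72.7% in WT and 76.3% in KO had IGKV15-103. It did not rest on 1 clone: 17 clones in each library had the pairing. With each clone counted by 1 of its barcodes, IGKV15-103 was at 36.8% of WT and 23.9% of KO clones. The leading light-chain V genes of IGHV11 and IGHV12 had higher shares per clone. IGKV14-126 was at 83.3% and 65.9% in IGHV11, and IGKV4-91 at 39.7% and 42.9% in IGHV12. IGKV7-33, the T15 partner, was found with IGHV7-1 in 0 of 63 WT barcodes and in 4 of 187 KO barcodes (2.14%), all of 1 clone. With any other V gene it was found in 0 of 5940 WT barcodes and in 4 of 12814 KO barcodes (0.0312%). IGKV7-33 was thus absent from WT with every V gene, so the WT count says nothing about its pairing with IGHV7-1.

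Other pairings were weaker. IGHV7-3 went with the lambda chain IGLV1 in 20 of 125 WT barcodes and 63 of 376 KO barcodes (16.8%), against 4.87% and 5.96% with all other V genes. With IGLV2 it went in 9.6% and 20.2%, against 5.56% and 4.78%. Per clone, IGHV6-6 had IGKV12-46 in 18.2% of 110 WT and 10.3% of 155 KO clones, against 1.90% and 1.70% elsewhere. IGHV6-3 had IGKV14-111 in 9.59% and 9.12% of clones, against 1.71% and 2.22%. In KO, 13 of 80 IGHV4-1 clones (16.2%) had IGKV4-86, which elsewhere was at 0.246%. IGHV9-3 and IGHV7-3 had the highest lambda shares of the named V genes in WT, at 34.8% and 27.9% of clones, and were at 24.4% and 32.9% in KO.

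Clones with the same V gene, J gene and CDR3 nucleotides in both libraries numbered 74, or 3.38% of WT and 1.92% of KO member clones. They held 160 WT and 268 KO barcodes, 6.38% and 4.40% of the members. IGHV1 shared 48 clones (2.21% and 1.25%), IGHV11 15 (30.6% and 33.3%) and IGHV12 52 (26.4% and 33.1%). IGHV7 stood highest among the smaller families, with 14 clones (8.92% and 4.56%) that held 18.7% of its WT and 17.6% of its KO barcodes. Of these, 11 were IGHV7-1, all joined to IGHJ1, and they made up 28.9% of its WT and 16.2% of its KO clones. IGHV2 shared 20 clones, 9 of them IGHV2-2, while IGHV14 shared 1 and IGHV13 none.

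Shared clones had simpler joints. Their median CDR3 was 36 bases, with 6 unmatched bases, and 81.1% had a middle found whole in a germline D gene. Clones found in 1 library had medians of 39 and 14 bases, and that share was 15.9% in WT and 13.4% in KO. IGHJ1 was joined in 27.0% of shared clones and in 18.3% and 16.9% of the others.

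**Figure D5:**
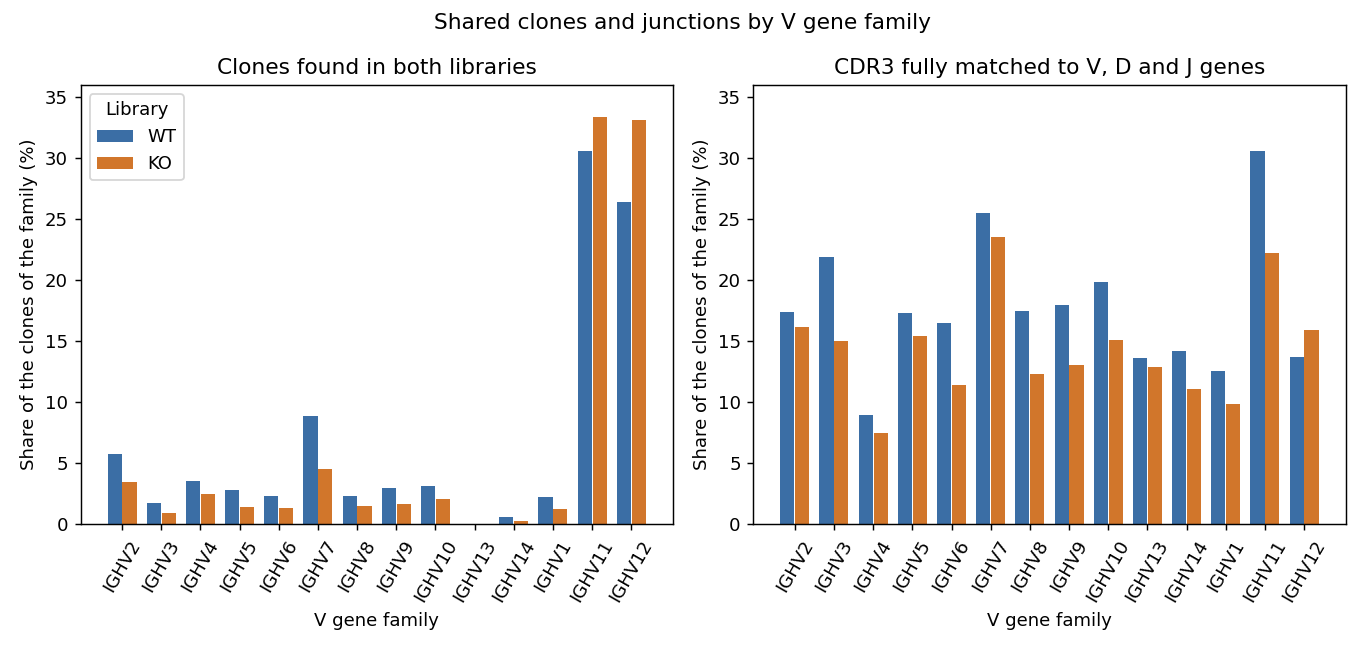
Share of the clones of each family (%, y axis) that were found with identical V gene, J gene and CDR3 nucleotides in both libraries (left), and whose CDR3 middle was found whole within a germline D gene (right), in the WT and KO libraries. IGHV7 has the tallest bars of the smaller families in both panels, below IGHV11 and IGHV12 on the left.

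The recurring IGHV7-1 heavy chains are printed here because IGHV7-1 had 11 clones in both libraries, more than any other member. CDR3 sequences run from the conserved cysteine codon to the conserved tryptophan codon. Capitals mark the bases left between the unbroken match to the V gene end and the unbroken match to the J gene. Beyond a first mismatch, capitals can still equal V or J gene bases.
IGHV7-1 IGHJ1 form a: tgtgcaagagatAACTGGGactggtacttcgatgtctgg
IGHV7-1 IGHJ1 form b: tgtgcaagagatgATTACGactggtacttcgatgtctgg
IGHV7-1 IGHJ1 form c: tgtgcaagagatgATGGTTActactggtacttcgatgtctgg
IGHV7-1 IGHJ1 form d: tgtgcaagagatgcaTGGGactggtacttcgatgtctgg
IGHV7-1 IGHJ1 form e: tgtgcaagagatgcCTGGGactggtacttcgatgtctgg
IGHV7-1 IGHJ1 form f: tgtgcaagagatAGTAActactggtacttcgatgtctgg
Form a was the largest member clone over both libraries, with 17 WT and 26 KO barcodes. Its light chain was IGKV15-103 in 14 of 16 WT and 26 of 26 KO barcodes that had one, with 7 and 5 different light-chain CDR3s. Forms b and c were found in 1 WT barcode each and in 13 and 11 KO barcodes, all with IGKV15-103. Forms d and e differ at 1 base and encode the same protein, and were at 2 and 1 WT barcodes and at 10 KO barcodes each. Form f was at 3 and 7.

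The largest WT member clone had no match in KO, and its sequence is shown beside a KO chain of the same V gene.
IGHV6-6 IGHJ3: tgCACCTACTGGgcttactgg
IGHV6-6 IGHJ2: tgtaccaggTGGgactactgg
The IGHJ3 chain was carried by 24 WT and 0 KO barcodes. All 24 had IGKV12-46 with 1 light-chain CDR3, and all were IgM. The IGHJ2 chain was in 1 WT and 6 KO barcodes, and it had IGKV12-46 in the 1 WT and all 5 KO barcodes that had a light chain. This clone held 24 of the 147 WT barcodes of IGHV6-6, and with the largest clone of each family left out of both libraries the ratio per barcode of this V gene was 0.850.

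A further set of shared clones had the same light-chain V gene in both libraries, which is why they are shown.
IGHV2-2 IGHJ2: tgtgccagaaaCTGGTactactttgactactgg
IGHV2-6-8 IGHJ4 form a: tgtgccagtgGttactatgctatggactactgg
IGHV2-6-8 IGHJ4 form b: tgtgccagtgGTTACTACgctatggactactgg
IGHV5-6 IGHJ3: tgtgcaagacTAACTGggtttgcttactgg
IGHV8-5 IGHJ3: tgtgctcaaatGAGGGggtttgcttactgg
The IGHV2-2 chain was in 6 WT and 9 KO barcodes, all with IGKV1-117. Both IGHV2-6-8 forms also had only IGKV1-117. They differ at 1 base and encode the same protein, and form a was in 8 WT and 3 KO barcodes while form b was in 1 and 9. The IGHV5-6 chain was in 6 and 2 barcodes and the IGHV8-5 chain in 1 and 5, all with IGLV2.

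Other large clones had mixed light chains and are shown for contrast.
IGHV5-6 IGHJ2: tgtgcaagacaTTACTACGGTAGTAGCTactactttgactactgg
IGHV5-4 IGHJ2: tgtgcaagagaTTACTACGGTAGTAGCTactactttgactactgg
IGHV14-3 IGHJ2: tgtgctaACTGGgactactgg
IGHV14-2 IGHJ1: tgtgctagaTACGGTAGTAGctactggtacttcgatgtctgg
The IGHV5-6 chain was in 12 WT and 9 KO barcodes with 3 light-chain V genes in each library, IGKV10-96 being the most frequent at 8 and 4 barcodes. The IGHV5-4 chain carries the same middle and J gene part on another V gene, and was in 3 WT and 9 KO barcodes. The IGHV14-3 chain was in 8 and 7 barcodes with IGKV4-68 in 4 and 5 of them. The IGHV14-2 chain was in 11 KO barcodes with 6 different light-chain V genes and in 0 WT barcodes.

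Different nucleotide clones rarely encoded the same CDR3 protein with the same V and J gene within a library. Of the member CDR3 proteins, 21 of 2171 in WT and 43 of 3801 in KO had 2 or more nucleotide forms. Over both libraries the IGHV7-1 forms d and e formed the most abundant such set, with 23 barcodes, followed by the IGHV2-6-8 pair with 21. An IGHV7-3 set of 2 forms had 19 barcodes, 17 of them in KO. IGHV4-1 with IGHJ1 had 4 forms of 1 protein with 15 barcodes, each form found in 1 library only, with 3 and 4 barcodes in WT and 6 and 2 in KO.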

How the data were processed

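Deposited receptor files list each contig with its V, J and constant gene, CDR3 and UMI count, and deposited expression files hold raw UMI counts per gene and barcode. The authors' matrices came from Cell Ranger 6.1.2 per the file headers. The submitters' processing notes give version 6.0.1 instead, with mm39 as the build and Seurat 4.3.0, so the annotation behind the names is uncertain. Per barcode the IGH contig with the most UMIs was kept (Python 3.11.15, pandas 2.3.3, scipy 1.17.1), with no other filter. The expression alternative required 200 genes and under 10% mitochondrial UMIs. No doublets were removed. V gene coordinates come from exact sequence matches to GENCODE M21 (GRCm38). The ratio intervals were checked on simulated data in which each barcode was drawn independently. Barcodes of 1 clone are not independent, so the check does not show the coverage of the intervals per barcode here. With 1 library per genotype, intervals cover counting error only, and UMIs and recurring barcodes are not independent animals.

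The members, marker lists and V genes named were chosen with earlier results of these data known. V genes named hold at least 1% of heavy chains in a library, are the most used of their family, or were called. IGHV2-4, IGHV3-3, IGHV6-4 and IGHV9-4 fall outside this rule and were named after their values were seen. Clones printed are among the 3 largest per library or shared with at least 5 barcodes. The comparison without IGHV11 and IGHV12, the sets of silent CDR3 variants and the IGHV7 light-chain genes were chosen after the data were seen.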

Additional observations from a re-analysis of the deposited data

How the results depend on the processing

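The KO to WT ratio of the smaller families per barcode stayed above 1 under at least 5 heavy-chain UMIs, a light chain required, exactly 1 heavy-chain contig, the expression filter, IgM and IgD only, 1 barcode per clone, and the largest clones left out. It was close to 1 with 1 barcode per clone (1.02, an interval that holds 1) and with IGHV11 and IGHV12 left out of the total (1.01), the latter chosen after seeing the data. Per clone and without IGHV11 and IGHV12 it was 0.995. With 1 barcode per clone the ratio of IGHV7 was 1.14 and that of IGHV6-3 1.15. The count of families whose interval excluded 1 per barcode went from 3 to 1 with 1 barcode per clone, to 2 without IGHV11 and IGHV12, and to 4 with exactly 1 heavy-chain contig. Per clone the count of such families went from 1 to 0 with exactly 1 heavy-chain contig and without IGHV11 and IGHV12. The count of members called higher per barcode went from 1 to 0 in 4 settings: exactly 1 heavy-chain contig, the largest clones left out, 1 barcode per clone, and IGHV11 and IGHV12 left out. The ratio of barcodes in clones of at least 2 was 1.86 after thinning KO and 3.61 with clones taken from the deposited clonotype identifiers. No paired analysis was possible because each genotype had 1 library per assay. Shares of families under 100 barcodes are limited by counting error, and the lower depth of the KO libraries and the genotype cannot be told apart.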
